A study of Mus musculus with 12 samples.

Results

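Among the poly(A) sites of mouse embryonic stem cells, 2409 clusters carried the canonical polyadenylation signal AATAAA listed at a distance of exactly 11 nt. They were chosen by these 2 listed values alone, the hexamer and its distance, from a catalogue of 145099 clusters outside the mitochondrial chromosome, of which they made up 1.66%. They were 3.69% of the 65222 clusters listed with AATAAA (95% Wilson interval 3.55 to 3.84%) and 78.8% of the 3058 clusters listed with any hexamer at 11 nt. They were set against 2479 AATAAA clusters at 9, 10, 12 or 13 nt, called the flanking distances below, and against 51959 AATAAA clusters at 15 to 30 nt.

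The study concerned premature polyadenylation and its suppression by U1 snRNP, and mapped the ends of polyadenylated RNA by 2P-seq, in which reading starts at the poly(A) tail. All 12 libraries, 6 groups of 2, came from V6.5 embryonic stem cell clones with a conditional knockout (CKO) of Exosc3, a subunit of the RNA exosome, in which doxycycline at 0.1 μg/ml keeps Exosc3 present. The labels do not say how many clones were used or whether replicates were separate cultures. A pair of groups was kept with doxycycline or taken off it for 3 days. The other 4 were with or without doxycycline for 2 days and were nucleofected with 15 μM of U1 AMO, an antisense oligonucleotide against U1, or of Scr AMO, its control, 8 hours before collection. Of the 7 columns of the catalogue, 0 held a value per library, so read depth per site is unknown and the groups were not compared here. Each value below describes positions in the mm9 genome that the authors listed for the whole series. The genotypes, the doxycycline and the AMOs cannot be tied to any one site.

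AATAAA is bound in the nascent RNA by the cleavage and polyadenylation specificity factor, and cleavage normally follows a short way downstream, at a site chosen together with U-rich or GU-rich elements beyond it. Poly(A) sites of genes often come in tandem, so that one transcript has alternative ends. Methods that prime on the poly(A) tail can also prime inside A-rich stretches of a transcript, and whether that bears on these sites was not tested. The catalogue lists 1 hexamer per cluster, so it does not show whether a site listed with AATAAA at 11 nt also had a second hexamer farther upstream. The hexamer is the only sequence used here. Genomic sequence and gene models around the sites were not analysed here.

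The distance that defined the sites stood out as a narrow spike. AATAAA was listed at 9 nt for 431 clusters, at 10 nt for 678, at 11 nt for 2409, at 12 nt for 815 and at 13 nt for 555. The count at 11 nt was 3.89 times the mean of the flanking distances, an excess of 1789 clusters over that mean of 620 (619.75). Across the 19 autosomes this ratio ran from 2.95 on chromosome 16 to 5.55 on chromosome 19 (mean 3.91 ± 0.677, SD), and it was 4.57 on the X chromosome. By strand it was 3.93 (plus) and 3.84 (minus). The hexamer and the distance chose the sites, so these values describe them and were not tested. The same holds for the splits of the spike given next. Later comparisons with the flanking distances, of gaps, lone sites, width and regional density, use the same sites as these splits. They read them the other way round and do not count as separate evidence.

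The spike varied with how close the nearest site of the same strand lay. Where another cluster of the strand lay within 100 nt, AATAAA at 11 nt was 1.76 times as frequent as at the flanking distances and made up 1.04% of the 9971 AATAAA clusters (interval 0.862 to 1.26%). At gaps of 100 nt to 1 kb the ratio was 2.26, at 1 to 5 kb 3.90 and at 5 to 20 kb 4.95. Above 20 kb it reached 5.23, and there 777 of 8927 AATAAA clusters, or 8.70% (interval 8.14 to 9.31%), had the signal at 11 nt. That was nearly as many as at 19 nt, the most frequent distance of that class, with 799 clusters. A higher share at isolated sites was not particular to 11 nt. From the class within 100 nt to that over 20 kb, the share went from 0.411 to 1.17% at 9 nt and from 0.562 to 1.85% at 10 nt. It went from 0.712 to 2.42% at 12 nt and from 0.682 to 1.22% at 13 nt. The class within 100 nt added 45 clusters to the excess over the flanking distances, and the class over 20 kb added 629 (628.5).

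**Figure D1:**
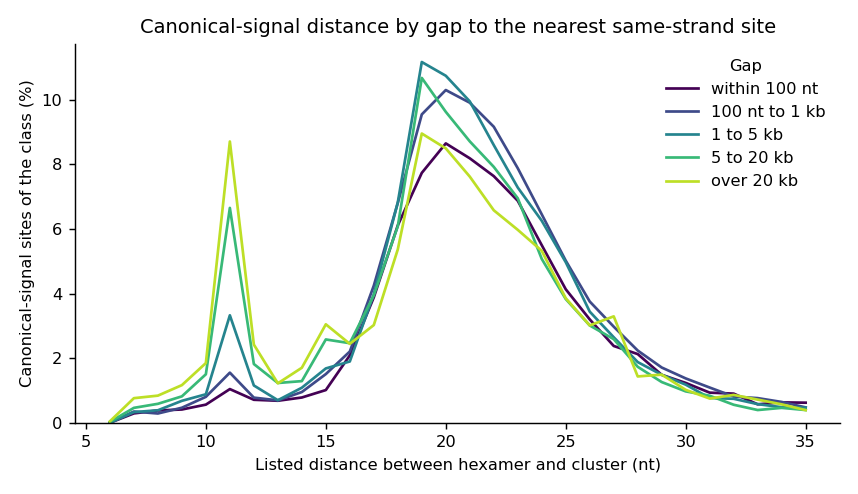
Percent of AATAAA clusters at each listed distance from 6 to 35 nt, in 5 classes of the gap in nt or kb to the nearest cluster on the same strand. The share at 11 nt rises from 1.04% of clusters with a neighbour within 100 nt to 8.70% of those with none within 20 kb. Shares at the flanking distances are also higher in the latter class, for example 0.712% and 2.42% at 12 nt. The share at 19 nt runs from 7.73% to 11.2% without such an order.

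Place in a group of neighbouring sites gave the same order. Neighbouring sites of one strand up to 2 kb apart were taken as a run. The ratio at 11 nt to the flanking distances was 4.95 for lone sites, 2.71 for the most upstream site of a run, 2.70 for the most downstream and 1.63 for sites in the middle. Narrow clusters held more of the spike than wide ones. The ratio was 5.55 in clusters of 1 nt and 5.66 in those of 2 to 5 nt, fell to 2.59 at 6 to 8 nt, was 4.27 at 9 to 13 nt, and reached 1.46 in clusters wider than 50 nt. Regional density, the number of other clusters on both strands 10 to 500 kb away, made less difference. From the sparsest to the densest quintile of the catalogue the ratio was 3.32, 4.03, 3.87, 4.11 and 4.14.

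The comparisons that follow used measures other than the hexamer and the distance of the site itself. Some of them used these values of neighbouring sites. They asked for the hexamer of the nearest same-strand site, or whether another member lay nearby. Those comparisons are thus not free of the values that chose the sites. Nor are the comparisons of cluster width and of 1-nt clusters, because width and listed distance may be linked, as set out below. Each was made within every autosome, members minus comparison sites, and the 19 differences were tested with a 2-sided sign-flip permutation test, with p-values adjusted by Benjamini-Hochberg over 28 comparisons. Of these, 22 passed an adjusted p of 0.05, among them 1 of 2 strand-balance comparisons added after the data had been seen. All comparisons of cluster width and of 1-nt clusters are also among the 22. Chromosomes are not biological replicates and neighbouring sites are not independent. These p-values only set the mean difference over autosomes against random flips of sign. They do not measure how even the autosomes are and say nothing of repeat cultures. The smallest adjusted value reached was 2.15e-05.

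Sites with AATAAA at 11 nt had few neighbours on their own strand, on either side. A same-strand cluster lay within 1 kb of 417 of them, 17.3% (interval 15.9 to 18.9%), against 31.8% at the flanking distances (interval 30.02 to 33.7%) and 46.9% for the more distant signals. Over autosomes the share was 17.5% ± 4.76 (SD, n = 19) against 31.5% ± 4.68 at the flanking distances, lower on 19 of 19 (difference -13.97 percentage points ± 6.03, adjusted p = 2.15e-05, permutation test). Within 0.2 kb, where fewer sites have a neighbour, this difference was -7.37, and that from 15 to 30 nt was -14.6 where it was -29.5 within 1 kb. On the upstream side 11.1% ± 3.07 had a cluster within 1 kb, against 21.5% ± 4.14 at the flanking distances and 33.2% ± 1.70 at 15 to 30 nt. On the downstream side the shares were 10.4% ± 4.40, 19.1% ± 3.79 and 27.9% ± 1.43. On each side the sites at 11 nt were lower than both comparison sets, and each of these differences passed the test. The largest adjusted p among them was 7.47e-05 (permutation test), for the downstream side against the flanking distances, where 17 of 19 autosomes were lower.

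The 2 sides were alike for these sites and unlike at 15 to 30 nt. The median gap was 20550 nt to the upstream and 19516 nt to the downstream same-strand cluster at 11 nt. At 15 to 30 nt it was 3037 nt upstream and 5284 nt downstream. At the flanking distances it was 11403.5 and 11450 nt. The mean gap to the nearest same-strand cluster was higher at 11 nt than at the flanking distances by 1.04 on the log2 scale ± 0.52 (SD, n = 19), with 19 of 19 autosomes higher (adjusted p = 2.15e-05, permutation test). Against 15 to 30 nt it was higher by 2.30 ± 0.45.

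Most sites at 11 nt were lone, 1818 of 2409 or 75.5% (interval 73.7 to 77.1%). At the flanking distances 59.2% were lone (interval 57.3 to 61.1%), as were 41.6% of the sites at 15 to 30 nt. The excess of lone sites over the flanking distances was 15.9 percentage points ± 4.99 over autosomes (19 of 19, adjusted p = 2.15e-05, permutation test). Of those in a run, 207 were the most upstream site, 140 lay in the middle and 244 were the most downstream. The flanking distances were similar in this, with 362 sites that ended a run and 305 that began one. At 15 to 30 nt 11471 sites ended a run and 7603 began one. Gaps, neighbours within 1 kb and lone sites are readings of one property and do not count as separate evidence. They also restate the splits of the spike by gap and by place in a run.

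**Figure D2:**
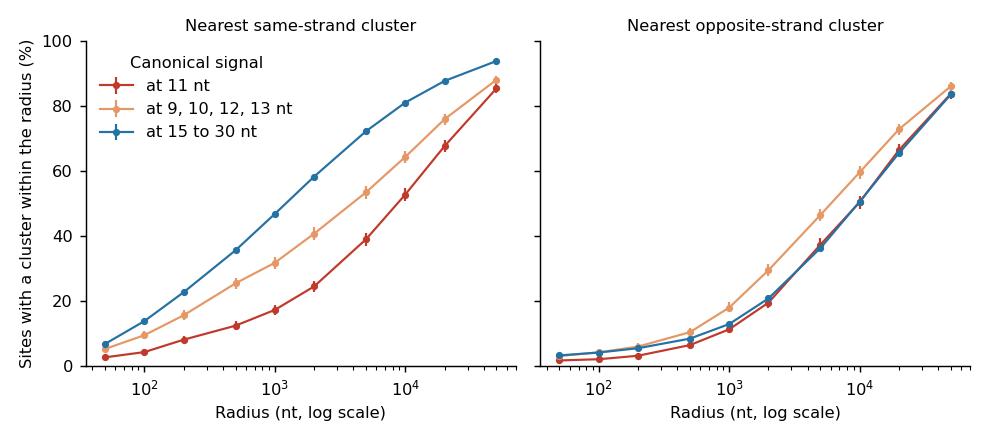
Percent of sites with another cluster within a radius from 50 nt to 50 kb (log scale) on the same strand, left, and on the opposite strand, right, for sites with the signal listed 11 nt away, at the flanking distances or 15 to 30 nt away, with 95% Wilson intervals as bars. On the same strand the sites at 11 nt lie lowest at each radius shown, while on the opposite strand they lie below the sites at 15 to 30 nt within 500 nt (6.48% and 8.46%) and close to them from 2 kb upward.

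On the opposite strand the difference from 15 to 30 nt depended on the radius. Within 500 nt an opposite-strand cluster was found for 6.48% of the sites at 11 nt (interval 5.56 to 7.53%) and for 8.46% at 15 to 30 nt (interval 8.23 to 8.71%). An opposite-strand cluster lay within 1 kb of 11.2% ± 3.51 of them over autosomes and of 12.9% ± 2.56 of the sites at 15 to 30 nt (difference -1.69 percentage points ± 3.66, 12 of 19 lower, adjusted p = 0.0739, permutation test). This difference passed without chromosome 1, 5, 6 or 12, at -1.90, -2.003, -1.99 and -1.96. Within 0.2 kb the difference was -2.38 and passed (adjusted p = 6.86e-05, permutation test), and within 5 kb it was 1.09, with the opposite sign, and did not pass. The flanking distances were higher, at 17.98% ± 3.45 (difference -6.79 percentage points ± 4.61, 18 of 19 lower, adjusted p = 2.15e-05, permutation test), but among sites with no same-strand cluster within 10 kb this difference was -1.92 and did not pass (adjusted p = 0.163, permutation test). Of the 2409 sites, 15 overlapped a cluster of the other strand, or 0.623% (interval 0.378 to 1.02%). At 15 to 30 nt 1.89% did (interval 1.77 to 2.01%).

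Beyond the first kilobases, the surroundings of these sites had similar densities on both strands. Sites at 11 nt had 16.1 same-strand and 8.82 opposite-strand clusters per 100 kb within 1 kb. Between 1 and 2 kb these densities were 10.9 and 10.03, between 2 and 5 kb 9.88 and 10.03, and between 20 and 50 kb 8.38 and 8.39. At 15 to 30 nt the same strand held 33.9 clusters per 100 kb at 1 to 2 kb and the opposite strand 11.5, and 21.9 and 10.8 at 2 to 5 kb. The flanking distances differed in where their opposite-strand neighbours lay. At 1 to 2 kb these had 21.4 opposite-strand clusters per 100 kb on the upstream side and 11.1 on the downstream side, while sites at 11 nt had 11.03 and 9.04. Of all clusters 1 to 20 kb away, 50.3% ± 4.06 (SD, n = 19) lay on the same strand for sites at 11 nt and 63.3% ± 2.68 for sites at 15 to 30 nt. The difference was -12.9 percentage points ± 6.04, lower on 19 of 19 autosomes. Its size moved with the ring, to -20.1 at 1 to 5 kb and -6.50 at 5 to 50 kb. At the flanking distances the share was 49.996% ± 4.65, which differed from that at 11 nt by less than the spread (0.328 percentage points ± 6.11). These shares were compared after the densities by separation had been seen, so they restate those densities and no p is given for them.

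**Figure D3:**
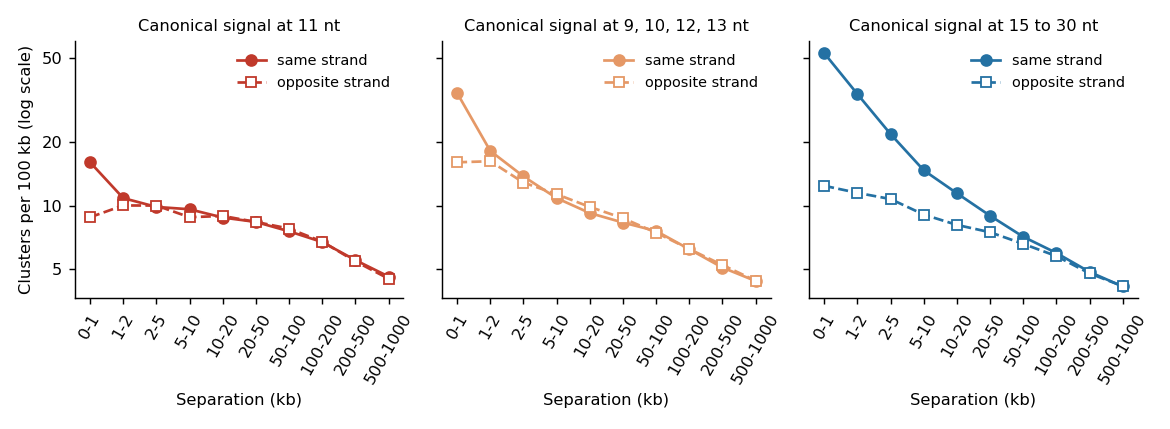
Clusters per 100 kb (log scale) in rings of separation from 0 to 1000 kb around AATAAA sites on the 19 autosomes, on the same strand (filled, solid) and the opposite strand (open, dashed), with 1 panel for each range of signal distance. At 11 nt the strands meet from the ring of 1 to 2 kb (10.9 and 10.03), while at 15 to 30 nt the same strand stays higher until about 100 kb.

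Counted over both strands and 10 to 500 kb, the sites at 11 nt lay in slightly denser regions. The median number of clusters 10 to 500 kb away was 107 (quartiles 65 and 163) at 11 nt, 102 at the flanking distances and 93 at 15 to 30 nt (quartiles 54 and 147). On the log2 scale the mean was higher than at 15 to 30 nt by 0.17 ± 0.14 (SD), 16 of 19 autosomes being higher (adjusted p = 0.000148, permutation test). It was higher than at the flanking distances by 0.12 ± 0.18, on 13 of 19 (adjusted p = 0.0105, permutation test). With the count taken over 10 to 100 kb these differences were -0.0033 and -0.014 and did not pass (adjusted p = 0.933 for both, permutation test). Among sites with no same-strand cluster within 10 kb they were larger, 0.31 and 0.21. The order of the same-strand densities turned with separation. At 10 to 20 kb they were 8.80 clusters per 100 kb at 11 nt, 9.24 at the flanking distances and 11.5 at 15 to 30 nt, and at 200 to 500 kb they were 5.53, 5.09 and 4.86.

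The identifiers of clusters with a hexamer rise with position on every chromosome, and 29.3% of the numbers up to 441682 are present. What decided which numbers were kept is not stated in the labels or the file. Among the 25 numbers on either side, 29.0% ± 0.999 (SD, n = 19) were present around sites at 11 nt and 30.4% ± 0.706 around sites at 15 to 30 nt. The difference was -1.40 percentage points ± 0.748, lower on 19 of 19 autosomes (adjusted p = 2.15e-05, permutation test). It turned to 0.914 among sites with no same-strand cluster within 10 kb (adjusted p = 0.0102, permutation test). The flanking distances had 28.4% ± 1.17, which did not differ from 11 nt beyond the spread (0.515 percentage points ± 1.42, adjusted p = 0.151, permutation test).

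Clusters at 11 nt were narrower than the others. Their median width was 6 nt (quartiles 2 and 14, 95th percentile 33 nt), against 11 nt at the flanking distances and 10 nt at 15 to 30 nt. The mean width was lower than at the flanking distances by 0.51 on the log2 scale ± 0.25 (18 of 19 autosomes, adjusted p = 4e-05, permutation test), and lower than at 15 to 30 nt by 0.56 ± 0.17 (19 of 19). Among sites with no same-strand cluster within 10 kb these differences were smaller, -0.22 against the flanking distances (adjusted p = 0.0114) and -0.25 against 15 to 30 nt (adjusted p = 0.00088, permutation tests), and still passed. Clusters of 1 nt made up 13.5% ± 3.46 over autosomes, against 9.73% ± 2.30 and 9.66% ± 0.822. Counted up to 3 nt, the excess was 8.99 and 12.9 percentage points. Among sites with no same-strand cluster within 10 kb, the excess of 1-nt clusters was 3.60 percentage points over the flanking distances (adjusted p = 0.0711, permutation test) and 1.17 over 15 to 30 nt (adjusted p = 0.553), so neither passed there. The labels and the file header do not state which end of a cluster the distance starts at, so width and distance may be linked by how they were made. Width counts did step with the listed distance at 9 to 12 nt, as given next. Width is thus not a measure free of the distance that chose the sites.

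The widths at 11 nt had a dip at 7 to 8 nt. Clusters of 1 to 6 nt made up 1231 of 2409, or 51.1% (interval 49.1 to 53.1%), and clusters of 9 to 19 nt 781, or 32.4% (interval 30.6 to 34.3%). Only 82, or 3.404% (interval 2.75 to 4.21%), were 7 or 8 nt wide, where the sites at 15 to 30 nt had 8.65%. Counts fell from 323 at 1 nt to 37 at 8 nt and rose to 105 at 9 nt. A like step moved with the distance of the signal. For AATAAA at 9 nt the count rose from 7 clusters of 6 nt to 32 of 7 nt, at 10 nt from 11 clusters of 7 nt to 36 of 8 nt, and at 12 nt from 22 clusters of 9 nt to 44 of 10 nt. At each of these distances the step lay at a width 2 nt smaller than the distance. At 13 nt it was weaker, from 20 clusters of 10 nt to 28 of 11 nt, and at 14 nt there were 27 and 30. These widths were singled out after the counts had been seen and were not tested.

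**Figure D4:**
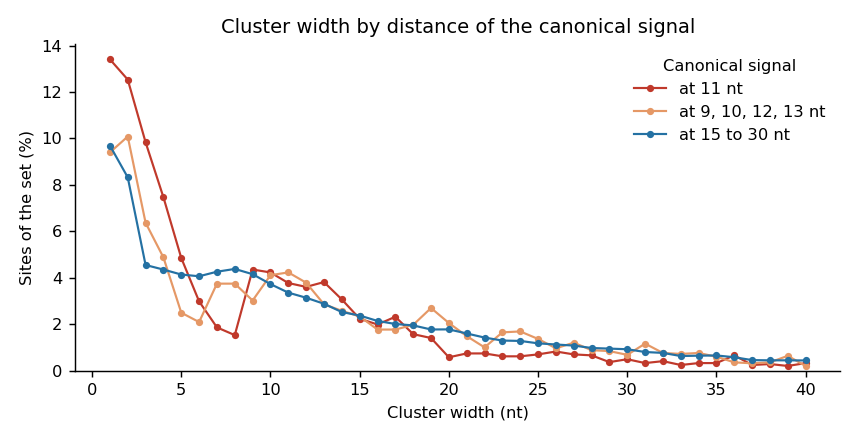
Percent of clusters at each width from 1 to 40 nt for sites with the signal listed 11 nt away, at the flanking distances or 15 to 30 nt away. Sites at 11 nt start highest, at 13.4% for 1 nt, drop to 1.54% at 8 nt and rise again to 4.36% at 9 nt. The curve pooled over 15 to 30 nt has no such gap. A step that moves with the distance would be spread out in that pool, so its absence there decides nothing.

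Narrow and wide sites at 11 nt differed in their surroundings. Of the clusters of 1 to 6 nt, 9.67% had a same-strand neighbour within 1 kb (interval 8.14 to 11.4%) and their median gap was 13050 nt. For the 82 of 7 or 8 nt the share was 23.2% (interval 15.4 to 33.4%), where the flanking distances had 14.5% (interval 10.2 to 20.3%), and the median gap was 7012 nt. For those of 9 to 19 nt the share was 16.9% (interval 14.4 to 19.7%) and the median gap 7218 nt. For the 315 clusters of 20 nt or more it was 46.7% (interval 41.2 to 52.2%) and 1280 nt. At 11 nt the share thus did not rise at every step of width, though the intervals for 7 or 8 nt and for 9 to 19 nt overlapped. Nor did it rise at every step at the flanking distances, with 16.7% at 1 to 6 nt and 14.5% at 7 or 8 nt. At 15 to 30 nt it was 30.2%, 38.3%, 48.6% and 70.2% from the narrowest to the widest class, above that at 11 nt in each. The flanking distances were higher than 11 nt in 3 of the 4 classes, with 16.7%, 32.7% and 56.4%, and lower at 7 or 8 nt.

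The nearest same-strand site of a site at 11 nt was most often another canonical site. Leaving out the 141 sites whose nearest neighbour was itself at 11 nt, 1279 of 2268 had a neighbour listed with AATAAA, or 56.4% (interval 54.3 to 58.4%), 310 one with ATTAAA, the main variant signal, and 189 one without a hexamer. The AATAAA share was 51.7% (interval 49.7 to 53.7%) at the flanking distances and 50.4% (interval 49.9 to 50.8%) at 15 to 30 nt. Over autosomes the difference was 5.21 percentage points ± 5.65 from the flanking distances (14 of 19, adjusted p = 0.00168, permutation test) and 6.48 ± 4.63 from 15 to 30 nt (17 of 19, adjusted p = 0.000123, permutation test). Among sites with no same-strand cluster within 10 kb these were 3.90 (adjusted p = 0.221) and 1.33 (adjusted p = 0.553, permutation tests), and neither passed.

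Sites at 11 nt were spread over all autosomes and the X chromosome. Their share among AATAAA sites at 11 nt or at 15 to 30 nt was 4.40% ± 0.537 over autosomes (SD, n = 19), from 3.63% on chromosome 2 (156 sites, interval 3.11 to 4.23%) to 5.38% on chromosome 19 (86 sites, interval 4.38 to 6.599%). Chromosome X, with 96 sites, had 5.34% (interval 4.39 to 6.47%), second of 20. Among all clusters of a chromosome, X ranked first, with 2.27% (interval 1.86 to 2.76%) against an autosomal mean of 1.65% ± 0.179 and a highest autosome of 2.05% (chromosome 10). The interval for X overlapped that of chromosome 10 on both scales. The Y chromosome held 0 sites at 11 nt beside 9 at 15 to 30 nt, too few to set a share. By strand, 50.9% ± 4.16 over autosomes lay on the plus strand, and no difference was detected from the flanking distances (1.15 percentage points ± 5.16, adjusted p = 0.382) or from 15 to 30 nt (0.213 ± 3.93, adjusted p = 0.817, permutation tests).

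**Figure D5:**
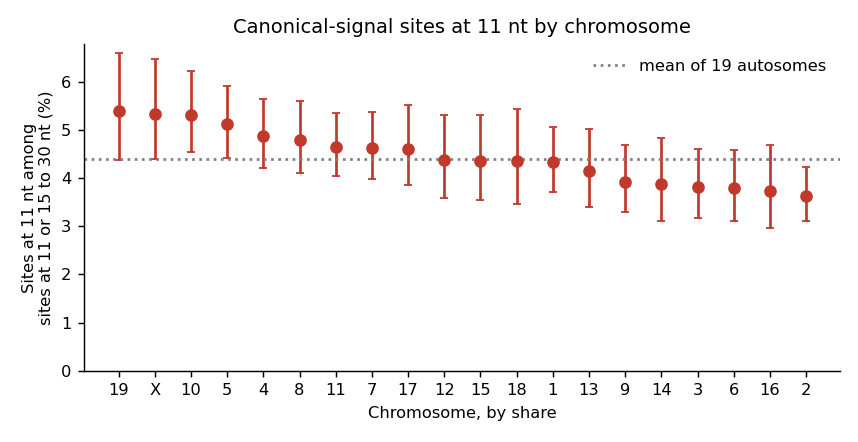
Sites at 11 nt as a percent of AATAAA sites at 11 nt or at 15 to 30 nt, for each of 20 chromosomes in order of the share, with 95% Wilson intervals as bars and the mean of the 19 autosomes as a dotted line. The shares run from 3.63% on chromosome 2 to 5.38% on chromosome 19, with X at 5.34%, and most intervals cross the mean of 4.40%.

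The nearest same-strand cluster was itself a site at 11 nt for 5.85% of the sites at 11 nt. It was one for 3.11% of the sites at the flanking distances and for 1.40% of those at 15 to 30 nt. These shares were not tested. The median separation between consecutive sites at 11 nt on a chromosome was 357852 nt (quartiles 111315 and 1211040 nt), over both strands. It was not set against a spacing expected from their number. Another such site lay within 100 kb of 39.0% ± 6.20 of them over autosomes (SD, n = 19). Within 100 kb of the sites at 15 to 30 nt one was found for 34.5% ± 5.38, a difference of 4.51 percentage points ± 6.29 (15 of 19, adjusted p = 0.00943, permutation test) that did not pass on the minus strand alone (2.37, adjusted p = 0.272) or among sites with no same-strand cluster within 10 kb (4.54, adjusted p = 0.0672, permutation tests). The flanking distances had 38.4% ± 8.07, and no difference was detected (0.567 percentage points ± 8.96, adjusted p = 0.817, permutation test).

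Close pairs of sites at 11 nt were mostly on one strand, and so were clusters of any kind within 1 kb. On the autosomes, 64.6% of clusters within 1 kb of sites at 11 nt lay on the same strand. Around the flanking distances 68.1% did, and around sites at 15 to 30 nt 81.0%. The pairs were not tested against these shares. At separations under 300 nt, measured between cluster midpoints, there were 13 pairs on the same strand and 1 on opposite strands, and at 300 nt to 1 kb 6 and 3. From 2 to 5 kb the counts were 12 and 16, and from 5 to 10 kb 23 and 22. Of the 13 closest same-strand pairs, 7 were 105 to 124 nt apart, on chromosomes 16, 10, 11, 14, 4 and, for 2 of them, X. The 1 close pair on opposite strands lay on chromosome 8, where a plus-strand cluster at chr8:125045314-125045323 was followed by a minus-strand cluster at chr8:125045325-125045333, 10.5 nt apart. The closest same-strand pair was at chr16:20615209-20615231 and chr16:20615319-20615331 on the plus strand, 105 nt apart. The next lay on the minus strand, at chrX:139242010-139242011 and chrX:139242119-139242121, with a separation of 109.5 nt.

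Individual sites show the range. The most isolated lay on the plus strand at chrX:128647102-128647108, 902844 nt from the nearest same-strand cluster. It was followed by a site on the minus strand at chr5:142037632-142037641, with a gap of 628311 nt, and one on the minus strand at chrX:37352431-37352432, with a gap of 590299 nt. The widest, of 135 nt, lay on the minus strand at chr5:30061811-30061945, 417 nt from its neighbour. Clusters of 119 nt and 115 nt followed on the minus strand at chr3:30959655-30959773 and chr3:90095839-90095953. These 3 were far wider than the 95th percentile of 33 nt.

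The 1-Mb window with the most sites at 11 nt held 10 of them, at chr6:29000001-30000000, among 137 clusters. Of these 10, 5 were on the plus strand and 6 were lone. A plus-strand pair at chr6:29191377-29191383 and chr6:29205673-29205686 had each other as nearest neighbours, with a gap of 14289 nt. The minus strand held a closer pair, with midpoints 211.5 nt apart, at chr6:29717236-29717256 and chr6:29717440-29717475. The nearest same-strand clusters of this pair lay at gaps of 133 and 91 nt, so these sites were not each other's nearest neighbours. The window also held a wide cluster of 105 nt, at chr6:29997349-29997453 on the minus strand. Windows on chromosomes 8, 10 and 13 held 9 sites each, and 598 windows held 1.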

How the data were processed

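Per the labels' protocols, RNA with a poly(A) tail was cut lightly with RNase T1 before reverse transcription, circularisation and PCR. Trimmomatic, STAR, bedtools and mm9 are named, with no version of the tools, per the submitters' processing notes. For the clustering rules, and for any filter on A-rich stretches, the sources used here give nothing. The table deposited by the authors holds positions, strands, hexamers and distances in nt, per the file headers, with no counts. Starts were taken as counted from 0 and are printed counted from 1. The mitochondrial chromosome (80 clusters) was left out. Neighbours were searched in the whole catalogue, with gaps between cluster edges. Intervals are 95% Wilson intervals and cover counting error only. Tests were 2-sided sign-flip permutation tests over 19 autosomes (100000 resamples, smallest p 1e-05, seed 1).

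The sites, lists and tests were chosen with earlier results of these data known. Regions named are the 3 widest, the 3 most isolated, the 3 closest pairs and members of the fullest window of 1 Mb (the rule took 2 windows, but 3 tied for the next place). Group comparisons planned between libraries could not be run. The neighbour measures and the test were first tested on simulated data. Computation used scipy 1.17.1, numpy 2.4.6 and pandas 2.3.3 in Python 3.11.15, and plots matplotlib 3.10.9. Alternatives were either strand, width limits, other windows, radii and rings, isolated sites alone, X added, and leaving out each autosome.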

Additional observations from a re-analysis of the deposited data

How the results depend on the processing

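No paired analysis was possible because the catalogue holds no value per library. Of 215 alternative values, 190 were counted as unchanged. For tested values this meant the same direction and side of the threshold. The ratio at 11 nt and the share on X had no test, and there it meant a shift of less than 1 SD over autosomes. Values are members minus comparison sites, in percentage points or log2, from the permutation test. On the minus strand alone 1-nt clusters against the flanking distances (3.27), regional density against them (0.067), another site at 11 nt within 100 kb (the same class nearby) against 15 to 30 nt (2.37) and the nearest hexamer against the flanking distances (3.76) no longer passed. The same class nearby against the flanking distances turned to -0.225 there, to -0.0902 with clusters wider than 1 nt and to -0.395 with 10 and 12 nt as neighbours. The nearest hexamer was 2.83 with 10 and 12 nt and no longer passed, nor did regional density against the flanking distances with clusters wider than 1 nt (0.089). Among sites with no same-strand cluster within 10 kb, these no longer passed: 1-nt clusters (1.17 against 15 to 30 nt, 3.60 against the flanking distances), the opposite strand against the flanking distances (-1.92), the same class against 15 to 30 nt (4.54) and the nearest hexamer (1.33 and 3.90). There the kept identifiers against 15 to 30 nt turned to 0.914 and the plus strand to -0.276. The opposite strand against 15 to 30 nt passed within 0.2 kb (-2.38) and turned to 1.09 within 5 kb. Density over 10 to 100 kb turned to -0.0033 and -0.014. Strand balance against the flanking distances turned to -1.56 on the plus strand and to -2.44 at 1 to 5 kb. The ratio at 11 nt was 3.23 against 10 and 12 nt and 4.80 against 8, 9, 13 and 14 nt, where it was 3.89 against the flanking distances. X over the autosomal mean was 1.38 over all clusters and 1.21 over AATAAA sites.

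Leaving out each autosome kept 523 of 532 values. The opposite strand against 15 to 30 nt ranged from -2.003 to -1.31 and passed without chromosome 1, 5, 6 or 12. The plus strand against 15 to 30 nt (-0.177 to 0.625), strand balance (-0.0623 to 1.09) and the same class (-0.475 to 1.59) against the flanking distances changed sign without chromosomes 3 or 14, 6 or 15, and 16. Not run were plus strand on 1 strand, 1-nt clusters without them, and neighbour measures among isolated sites, where the choice of sites sets them. No library could be left out for lack of values per library. Read depth per site is unknown.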

Other observations

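Other hexamers also had a distinct profile at isolated sites. Among sites with no same-strand cluster within 20 kb, AAGAAA was listed for 470, of which 299 (63.6%) had it at 7 to 12 nt. At 11 nt alone there were 57 (12.1%), with no spike beside 66 at 10 nt and 58 at 12 nt. The count dropped from 58 at 12 nt to 1 at 13 nt, and 51 lay at 15 to 30 nt. Among AAGAAA sites with a neighbour within 1 kb, 273 of 2985 (9.15%) lay at 7 to 12 nt, 37 at 12 nt and 36 at 13 nt. The all-A hexamer AAAAAA was listed at 7 to 12 nt for 191 of 346 such isolated sites (55.2%) and for 91 of 655 with a neighbour within 1 kb (13.9%). Among its isolated sites 37 (10.7%) had it at 11 nt, beside 8 at 9 nt, 0 at 10 nt, 24 at 12 nt and 18 at 13 nt. A high count at 11 nt was thus not particular to AATAAA. With a neighbour within 1 kb AAAAAA had 14 (2.14%) at 11 nt. ATTAAA had no spike at 11 nt among isolated sites, with 17, 20 and 18 clusters at 10, 11 and 12 nt, but 182 of its 1919 isolated sites lay at 26 nt, against 95 at 25 nt and 41 at 27 nt. With a neighbour within 1 kb, ATTAAA fell smoothly there, from 587 at 25 nt to 509 at 26 nt and 332 at 27 nt.

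AATAAA itself had further narrow maxima at isolated sites. At 15 nt it was listed for 272 clusters, 1.47 times the mean at 14 and 16 nt, and at 27 nt for 294, 1.48 times the mean at 26 and 28 nt. With a neighbour within 1 kb these ratios were 0.878 and 0.963, and that at 11 nt, against 10 and 12 nt, was 1.87 where isolated sites had 4.08. These distances were singled out after the profiles had been seen, and the differences were not tested.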
